A study of Mus musculus with 2 samples.

Results

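The sites described here were N6-methyladenosine (m6A) positions in the exons of long noncoding RNAs of the newborn mouse brain. In GLORI, glyoxal and nitrite deaminate unmethylated adenosines so that they are read as G, while m6A is still read as A. It was applied to RNA of a P0 (postnatal day 0) female of the F1r cross, whose mother was C57 and whose father was PWK. The paper describes poly(A)+ and ribo-depleted RNA, and its GLORI methods do not name which was used. Cerebellum and cerebrum gave 1 library each, and the only treatment both shared was that of the assay. A site was included when it was listed in at least 1 library, lay on chromosomes 1 to 19, carried a DRACH motif (D stands for any base but C, R for a purine and H for any base but G, and the central A is the site), and fell in an exon of a GENCODE M21 gene of type lincRNA, antisense, processed_transcript, sense_intronic, bidirectional_promoter_lncRNA or macro_lncRNA on the same strand. Sites that also lay in an exon of a protein-coding gene on that strand were left out. The rule found 1501 sites, which were 1.59% (95% Wilson interval 1.51 to 1.67) of the 94551 DRACH sites on these chromosomes, among 219409 listed sites of any kind. Of the 1501 sites, 648 were listed in the cerebellum library, 1346 in the cerebrum library and 493 in both, leaving 155 in cerebellum alone and 853 in cerebrum alone.

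m6A is deposited on nascent transcripts by the METTL3-METTL14 complex, which recognizes DRACH, and is bound by YTH proteins that influence RNA decay, localization and processing. In messenger RNAs the exon junction complexes left by splicing keep the mark away from junctions, so that it collects in long internal exons and around stop codons. Long noncoding RNAs have no stop codon and many have few or long exons. Several, among them Malat1, Neat1 and Miat, stay in the nucleus, and others, such as Kcnq1ot1, Meg3 and Snhg14, come from imprinted regions where 1 parental allele is transcribed. With 1 library of each tissue, differences between them could not be tested. The deposited lists held no methylation levels and no read depth, so a position missing from a list may lack the mark, the transcript or the coverage, which cannot be told apart. The cerebrum list held 188295 sites and the cerebellum list 79355, which is to be read beside every count by library below.

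Most but not all genes that mark a tissue had more sites in the list of that tissue. In coding exons as a whole the cerebellum library listed 43992 DRACH sites and the cerebrum library 75844. Of the union 8.78% were in cerebellum alone and 47.1% in cerebrum alone, which is to be read beside the forebrain genes below. En1, En2 and Barhl1, transcription factors of the hindbrain, had 5, 8 and 11 DRACH sites in coding exons, all of them in the cerebellum library. Tbr1 and Emx1, transcription factors of the forebrain, had 16 and 2, all in the cerebrum library. The forebrain genes Emx2 and Lhx2 were in both lists, Emx2 with 1 site in cerebellum and 5 in cerebrum, and Lhx2 with 6 and 7. Of the other hindbrain genes looked at, Gbx2 went against its label with 1 site in cerebellum and 2 in cerebrum, and Atoh1 had 0 sites in either library.

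The sequences below show, for the 5 genes with most sites, 150 nt that held as many sites as any such stretch of the gene, read 5′ to 3′ on the transcribed strand of GRCm38, with the DRACH 5-mer of each listed site in capitals. They are shown because they differ in how closely sites were packed and in which 5-mers carried them. The Tug1 stretch lay at chr11:3640398-3640547 on the minus strand, in exon 2 of 2, and held 6 sites, 4 of them in both libraries. The Kcnq1ot1 stretch lay at chr7:143258541-143258690 on the minus strand, in exon 1 of 1, and held 5 sites, 2 of them in both libraries. The 1500004A13Rik stretch lay at chr3:88800718-88800867 on the minus strand, in exon 3 of 3, and held 3 sites, 0 of them in both libraries. The Meg3 stretch lay at chr12:109558726-109558875 on the plus strand, in exon 5 of 5, and held 6 sites, 5 of them in both libraries. The Gm37494 stretch lay at chr7:39566467-39566616 on the plus strand, in exon 6 of 6, and held 5 sites, 5 of them in both libraries.
Tug1: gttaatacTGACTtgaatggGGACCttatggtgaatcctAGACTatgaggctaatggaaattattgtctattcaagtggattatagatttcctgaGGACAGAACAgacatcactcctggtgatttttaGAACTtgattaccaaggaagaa
Kcnq1ot1: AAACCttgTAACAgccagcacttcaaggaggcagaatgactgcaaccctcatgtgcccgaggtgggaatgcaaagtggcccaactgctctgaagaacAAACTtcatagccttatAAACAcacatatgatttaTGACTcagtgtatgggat
1500004A13Rik: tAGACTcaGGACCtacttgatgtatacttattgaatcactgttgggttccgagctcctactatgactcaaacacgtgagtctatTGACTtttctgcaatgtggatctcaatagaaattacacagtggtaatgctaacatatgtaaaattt
Meg3: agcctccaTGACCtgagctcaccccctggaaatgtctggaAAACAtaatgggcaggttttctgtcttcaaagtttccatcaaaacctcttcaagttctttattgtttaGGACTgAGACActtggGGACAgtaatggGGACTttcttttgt
Gm37494: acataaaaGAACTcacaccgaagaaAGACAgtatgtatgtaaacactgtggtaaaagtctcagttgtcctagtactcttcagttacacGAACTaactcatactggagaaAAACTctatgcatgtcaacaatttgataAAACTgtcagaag
In Tug1 and Meg3 6 sites fell within such a stretch, and in 1500004A13Rik 3. Tug1 had 3 sets of sites as dense and 1500004A13Rik 5, of which 1 each is shown, and the tied sets had up to 6 and 3 sites in both libraries. Sites a few bases apart were seen in Tug1, where GGACA ran directly into GAACA, and in Meg3, where GGACT was followed after a single base by AGACA.

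Further windows of 31 nt, with the site in the middle and its 5-mer in capitals, were taken from genes discussed below. For each gene the site nearest the 5′ end among those in both libraries was taken or, for Gm35040 and Dlx6os1, which had no such site, among those of the cerebrum. The Snhg14 window was chr7:59975704-59975734 (minus strand, exon 1 of 12, both libraries). The Gm35040 window was chr7:79555310-79555340 (plus strand, exon 2 of 2, cerebrum alone). The Miat window was chr5:112220093-112220123 (minus strand, exon 7 of 7, both libraries). The Malat1 window was chr19:5801546-5801576 (minus strand, exon 1 of 1, both libraries). The Mir124-2hg window was chr3:17794169-17794199 (plus strand, exon 1 of 2, both libraries). The Dlx6os1 window was chr6:6869413-6869443 (minus strand, exon 2 of 3, cerebrum alone). The Rian window was chr12:109636035-109636065 (plus strand, exon 1 of 1, both libraries). The Mir9-3hg window was chr7:79531501-79531531 (plus strand, exon 3 of 3, both libraries). The 2900097C17Rik window was chr2:156392102-156392132 (minus strand, exon 1 of 1, both libraries). The Sox2ot window was chr3:34611767-34611797 (plus strand, exon 2 of 5, both libraries). The Six3os1 window was chr17:85601440-85601470 (minus strand, exon 2 of 2, both libraries).
Snhg14: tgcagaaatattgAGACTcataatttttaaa
Gm35040: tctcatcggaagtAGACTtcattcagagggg
Miat: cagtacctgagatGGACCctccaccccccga
Malat1: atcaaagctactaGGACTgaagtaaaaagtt
Mir124-2hg: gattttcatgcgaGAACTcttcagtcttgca
Dlx6os1: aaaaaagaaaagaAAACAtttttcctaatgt
Rian: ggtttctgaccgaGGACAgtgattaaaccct
Mir9-3hg: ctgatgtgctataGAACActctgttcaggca
2900097C17Rik: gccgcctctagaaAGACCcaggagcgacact
Sox2ot: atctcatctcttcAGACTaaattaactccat
Six3os1: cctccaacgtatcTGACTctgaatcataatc
The 5-mers of these 11 sites ranged from GGACT and GAACT to the rarely listed AAACA of Dlx6os1.

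The 1501 sites lay in 414 genes out of 9394 annotated autosomal genes of the 6 types. lincRNA genes held 639 sites in 189 genes. Of these sites 3.29% were inside the span of a coding gene on the same strand and 0.626% opposite a coding exon. Antisense genes, which overlap a gene on the other strand, held 396 in 90 genes, and processed_transcript genes, which have no open reading frame assigned, held 341 in 81 genes. Bidirectional promoter genes held 75 sites and sense_intronic genes 50, each in 27 genes, and neither of the 2 macro_lncRNA genes had a site (0 sites). The share of sites found in both libraries was 33.6% (30.1 to 37.4) for lincRNA, 36.9% (32.3 to 41.7) for antisense, 32.6% (27.8 to 37.7) for processed_transcript, 18% (9.77 to 30.8) for sense_intronic and 16.0% (9.40 to 25.9) for bidirectional promoter genes. The intervals of the first 3 types overlapped one another. All 50 sense_intronic sites lay, as their type implies, inside the span of a coding gene.

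The share of sites found in both libraries lay between those of coding exons and of introns. Of all 1501 sites 32.8% (30.5 to 35.3) were found in both, against 44.1% (43.8 to 44.5) of 83146 DRACH sites in exons of protein-coding genes and 10.9% (10.1 to 11.7) of 6477 in their introns. Among the sites of the cerebellum library 76.1% (72.6 to 79.2) were also in the cerebrum library, compared with 83.4% (83.1 to 83.7) for coding exons and 38.4% (36.2 to 40.6) for introns. In the reverse direction the shares were 36.6% (34.1 to 39.2), 48.4% (48.0 to 48.7) and 13.2% (12.3 to 14.1). The noncoding share was below the coding share on 17 of 19 autosomes and above the intronic share on 16 of 19. The intervals take each site as its own draw and hold counting error alone, and no test of the difference was made.

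The DRACH share of listed positions lay between the same classes. Among 3537 listed positions that met the exon rule 42.4% (40.8 to 44.1) were DRACH, against 58.1% (57.9 to 58.4) in coding exons and 12.01% (11.7 to 12.3) in introns. The share was 63.0% in the cerebellum library and 42.6% in the cerebrum library, and was 76.1% (72.6 to 79.2) among positions listed in both. In coding exons the same 3 shares were 73.7%, 60.0% and 85.3%, and in introns 14.7%, 12.5% and 52.1%. By autosome the noncoding DRACH share ranged from 28.7% to 64.3% with a median of 39.6%, and it was below the coding share on 18 of 19 autosomes and above the intronic share on all 19.

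**Figure D1:**
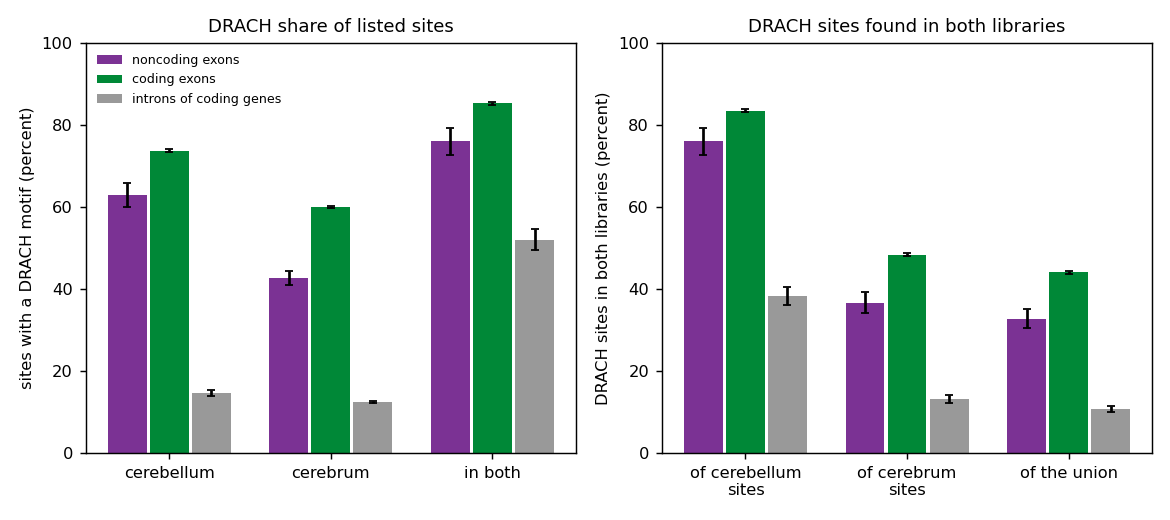
DRACH share of listed positions by library (left) and share of DRACH sites found in both libraries (right), in percent, for noncoding exons, coding exons and introns of coding genes; bars are shares and whiskers 95% Wilson intervals over sites. Noncoding exons lie between coding exons and introns in each group, with 76.1% DRACH among positions listed in both libraries against 85.3% and 52.1%.

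A few genes held much of the set. The gene with most sites held 6.86% of them, the first 10 genes 27.8% (25.6 to 30.2) and the first 50 genes 55.9% (53.4 to 58.4), while 208 of the 414 genes had a single site. The median was 1 site per gene, compared with 5 in 9571 coding genes with a site. Of the 414 genes, 153 (37.0%) had sites in both libraries, 225 (54.3%) in cerebrum alone and 36 (8.70%) in cerebellum alone. Of the coding genes 72.1% had sites in both, 24.8% in cerebrum alone and 3.17% in cerebellum alone. The classes were not matched for sites per gene. A single site was all that 50.2% of noncoding and 17.4% of coding genes had, and such a gene is in both libraries only if that site is. The share of sites in both libraries was 12.02% (8.28 to 17.1) in genes with 1 site, 22.8% (18.6 to 27.6) in genes with 2 to 4, 27.5% (22.7 to 32.8) in genes with 5 to 9, and 46.6% (42.9 to 50.4) in the 28 genes with 10 or more.

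**Figure D2:**
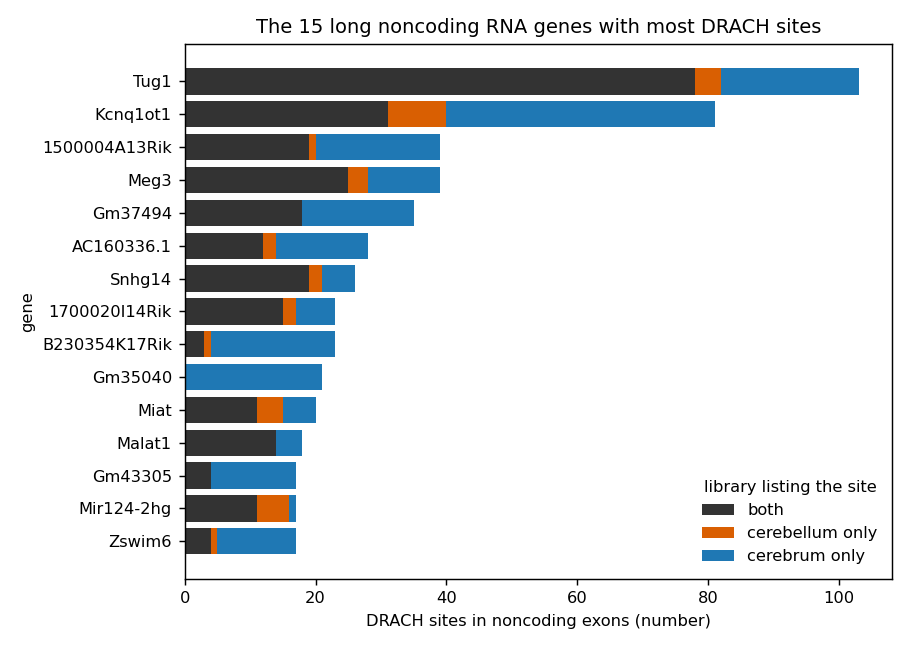
Number of DRACH sites in noncoding exons (horizontal axis) for the 15 genes with most sites (vertical axis), split by the library that lists them. Tug1 has 78 of its 103 sites in both libraries, whereas all 21 sites of Gm35040 are in the cerebrum library alone.

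Tug1, a long noncoding RNA first described in the developing retina, had more sites than any other gene. Its 103 sites (chr11:3639785-3649673, minus strand) comprised 82 in cerebellum, 99 in cerebrum and 78 in both. They made up 44.2% of the 233 DRACH adenosines in its carrying transcripts, the highest share among the 28 genes with 10 or more sites, whose median was 11.6% and lowest value 1.48%. Of 125 listed positions in Tug1, 82.4% were DRACH. In the transcript with most of these sites, of 6719 nt and 2 exons, 76 sites lay in exon 2 of 5739 nt and 20 in exon 1 of 980 nt. Sites were unevenly spread. With the transcript divided into 4 equal parts from the 5′ end, 32 of 52 DRACH adenosines were listed in part 1, 4 of 35 in part 2, 29 of 42 in part 3 and 31 of 52 in part 4. The sparse second part thus had 11.4% of its DRACH adenosines listed, and the others 61.5%, 69.0% and 59.6%.

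Several transcripts of imprinted regions carried sites, Kcnq1ot1 the most of them. Kcnq1ot1 (chr7:143203458-143296549, minus strand), the paternally expressed antisense RNA of the Kcnq1 domain, is a single exon of 93092 nt and had 81 sites, 40 in cerebellum, 72 in cerebrum and 31 in both. Only 3.41% of its 2372 DRACH adenosines were listed, at 0.870 sites per kb, compared with 14.3 per kb in the Tug1 transcript of 6719 nt. These adenosines were counted on the C57 reference, whereas the paternal allele of this cross is PWK. Of the 81 Kcnq1ot1 sites 41 were in soft-masked (repeat) sequence. Meg3 (chr12:109541001-109571726, plus strand), the maternally expressed RNA of the Dlk1-Dio3 region, had 39 sites, with 28 in cerebellum, 36 in cerebrum and 25 in both, and 36 of them lay in its last exon of 13087 nt. From the same region Rian had 13 sites, 11 in cerebellum, 12 in cerebrum and 10 in both, and Mirg had 3, with 2 in each library and 1 in both.

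Snhg14 (chr7:59307924-59975759, minus strand), a paternally expressed host of small nucleolar RNAs downstream of Snrpn, had 26 sites, 21 in cerebellum, 24 in cerebrum and 19 in both. In the transcript of 12 exons that carried 19 of them, exon 5 of 260 nt had 6 sites and exon 3 of 380 nt had 4, so its sites were not confined to long exons. Of the 26 sites 13 lay within 5000 nt downstream of a coding gene on the same strand, and the part of unannotated ends of that gene in them was not tested. Airn, antisense to Igf2r, had 2 sites, of which 1 was in both libraries. Of the 9 annotated genes on the list of imprinted regions 6 had a site, and 87 of their 164 sites were in both libraries (53.0%, 45.4 to 60.5), beside 32.8% of all 1501 sites and 46.6% of those in genes with 10 or more. H19, Nespas and Peg13 had 0 sites.

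Nuclear RNAs differed widely in site number. Malat1, an abundant RNA of nuclear speckles with a single exon of 6983 nt (chr19:5795690-5802672, minus strand), had 18 sites, 14 in cerebellum, 18 in cerebrum and 14 in both. Of its DRACH adenosines 6 of 32, 4 of 27 and 8 of 29 were listed in the first 3 of 4 equal parts, and 0 of 34 in the 3′-most part. Miat (chr5:112213228-112229395, minus strand), a nuclear RNA of neurons, had 20 sites, with 15 in cerebellum, 16 in cerebrum and 11 in both, and all 20 lay in its last exon of 7008 nt. Neat1 (chr19:5824708-5845478, minus strand), the scaffold of paraspeckles, had 1 site, in cerebrum, out of 403 DRACH adenosines in a single exon of 20771 nt. Of the 10 annotated genes listed as nuclear retained 8 had a site. Kcnq1ot1, Meg3, Rian, Mirg and Airn, counted above as imprinted, were among them and held most of their sites. Only Miat, Malat1 and Neat1, with 20, 18 and 1 sites, were new, so the share below largely repeats that of the imprinted regions. Of the 177 sites of the 8 genes 93 were in both libraries (52.5%, 45.2 to 59.8). The 46.6% of sites in any gene with 10 or more falls inside this interval, as it does for the imprinted regions, and all 1501 sites stood at 32.8%.

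**Figure D3:**
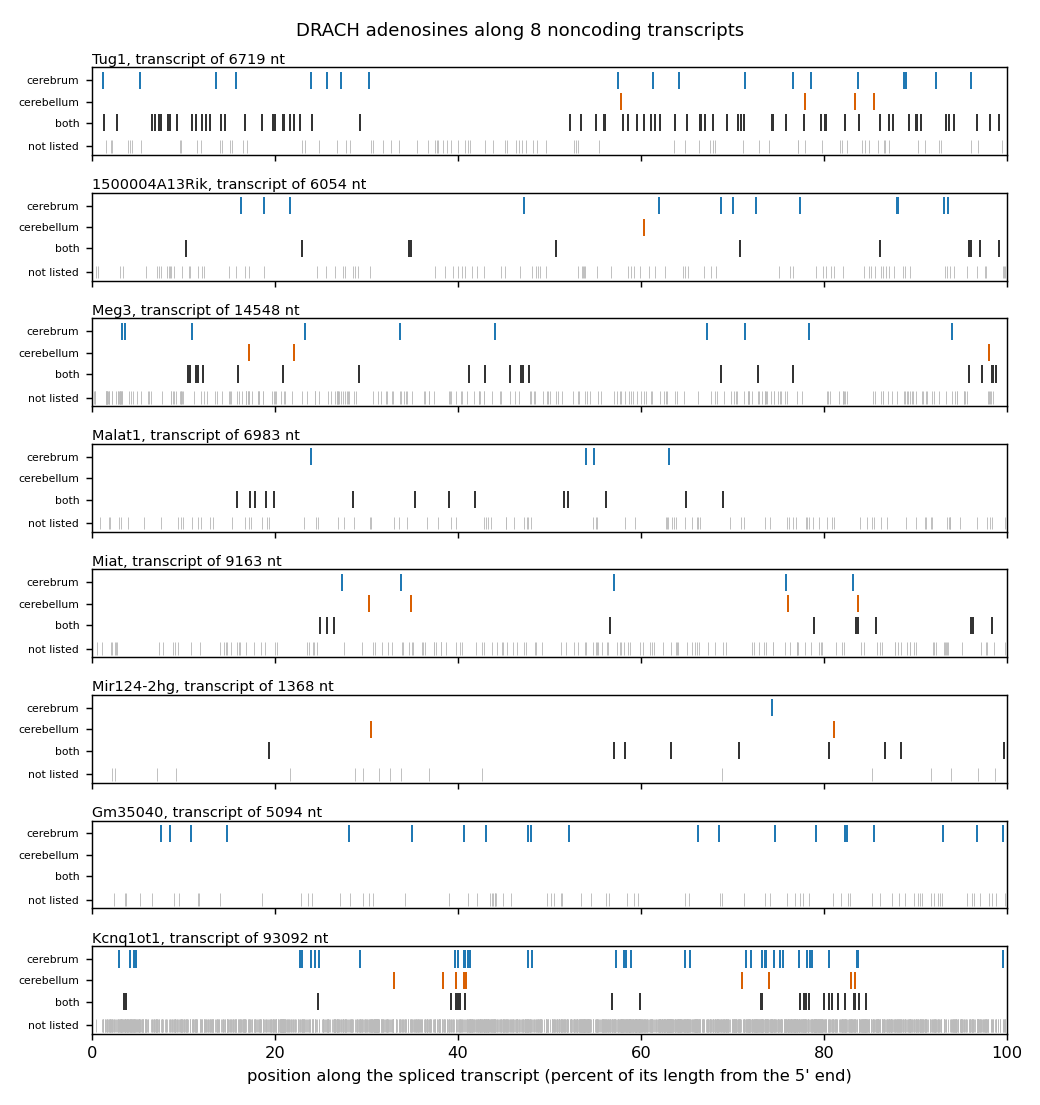
DRACH adenosines along the carrying transcript with most sites of 8 genes, each mark 1 adenosine at its position in percent of the spliced length, in 4 rows for cerebrum alone, cerebellum alone, both libraries and not listed; sites in other transcripts of a gene are not drawn. The gap in part 2 of Tug1, the absence of listed sites from the last part of Malat1 and the sparse marks of Kcnq1ot1 (3.41% listed) can be seen.

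Host genes of small RNAs overlapped the list of imprinted regions. Mir124-2hg (chr3:17789921-17808970, plus strand), which carries the neuronal microRNA miR-124, had 17 sites, of which 16 were in cerebellum, 12 in cerebrum and 11 in both. It thus had more sites in the cerebellum list, although that list is the shorter one. Mir9-3hg had 9 sites, 5 in cerebellum and all 9 in cerebrum. Mir99ahg had 9, with 4 in cerebellum, 8 in cerebrum and 3 in both, and Mir124a-1hg had 5, with 2 in cerebellum and all 5 in cerebrum. Gas5 had 3 sites and Snhg5 had 2, each with 1 in both libraries, while Mir22hg and Snhg20 had 1 each, in cerebrum. Of 23 annotated host genes 12 had a site, and 78 of their 128 sites were in both libraries (60.9%, 52.3 to 69.0). Meg3, Snhg14, Rian and Mirg, counted above as imprinted, held 81 of the 128 and 55 of the 78. The 8 host genes outside imprinted regions had 23 of 47 sites in both (48.9%, 35.3 to 62.8), beside 32.8% of all 1501 sites and 46.6% in genes with 10 or more. Of these 8 genes only Mir124-2hg, with 11 of its 17 sites in both, had 10 or more. The others had 9 or fewer, and the shares in genes with 1, 2 to 4 and 5 to 9 sites were 12.02%, 22.8% and 27.5%. The other 11 host genes, among them Snhg1, Snhg3 and Dleu2, had 0.

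RNAs transcribed next to developmental regulators had 78.3% (64.4 to 87.7) of their sites in cerebrum alone, beside 56.8% of all 1501 sites. The 56.8% includes genes with many sites, such as Tug1 with 21 of its 103 in cerebrum alone. This share was not taken separately for genes with as few sites as most of these RNAs had. Dlx6os1 (chr6:6820189-6871592, minus strand), which lies beside the Dlx5 and Dlx6 genes of forebrain interneurons, had 14 sites, all in the cerebrum library. A830082K12Rik had 9, 3 of them in both libraries and 6 in cerebrum alone. Sox2ot, which overlaps Sox2, had 6, with 2 in cerebellum and 6 in cerebrum, and Six3os1, beside Six3, had 6, with 1 in cerebellum and 6 in cerebrum. Zfhx2os had 4, with 2 in both, Pantr1 had 3 and Dlx1as 1, all in cerebrum. Rmst was the exception in order, with 2 of its 3 sites in cerebellum and 1 in cerebrum. In all, 8 of 17 annotated genes of this kind had 46 sites, of which 36 were in cerebrum alone, 2 in cerebellum alone and 8 in both (17.4%, 9.09 to 30.7). For all 1501 sites the share in both was 32.8%, and in genes with 10 or more, as Dlx6os1 had, it was 46.6%. Both lie above this interval. In genes with 1, 2 to 4 and 5 to 9 sites the share was 12.02%, 22.8% and 27.5%, inside it. Without Dlx6os1, which gave 14 of the 36 and was left out after its values were seen, 22 of 32 sites were in cerebrum alone (68.8%, 51.4 to 82.0) and 8 in both (25%, 13.3 to 42.1). Absence from the cerebellum list cannot be told apart from low expression there.

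The other listed noncoding genes with sites were Tug1, 2900097C17Rik and Dubr, 3 of 11 annotated. 2900097C17Rik is the mouse Norad, a cytoplasmic RNA that binds Pumilio proteins, and had 8 sites in its single exon of 4915 nt, with 6 in cerebellum and 8 in cerebrum. Dubr had 7, with 6 in cerebellum, 5 in cerebrum and 4 in both. Across all 59 annotated genes of the lists 28 had a site, with 414 sites, 231 of them in both libraries (55.8%, 50.98 to 60.5). The lists were chosen with earlier results of these data known, so this share describes the genes chosen.

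Genes known only by clone names held many sites too. 1500004A13Rik (chr3:88782943-88832547, minus strand) had 39 sites, 20 in cerebellum, 38 in cerebrum and 19 in both, and 25 of them lay in an exon of 5770 nt. 1700020I14Rik (chr2:119594297-119607502, plus strand) had 23, 17 in cerebellum, 21 in cerebrum and 15 in both. Of these 23 sites 19 were in the first of 4 equal parts of its transcript of 8300 nt, 0 in each of the middle parts and 4 in the last. B230354K17Rik (chr17:45433598-45442544, plus strand), a bidirectional promoter gene, had 23 sites, 4 in cerebellum, 22 in cerebrum and 3 in both, and 7 of them lay opposite an exon of a coding gene. Gm43305 had 17, with 4 in cerebellum and 17 in cerebrum.

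In the lists 12 genes with at least 5 sites, 99 sites in all, had every site in the cerebrum list, and 0 genes had 5 or more sites in the cerebellum list alone. The noncoding genes with at least 5 sites were 45 with 5 to 9 and 28 with 10 or more. The cerebrum list was the longer, with 188295 sites against 79355. Among genes with any number of sites, 54.3% of noncoding and 24.8% of coding genes had them in cerebrum alone. For cerebellum alone the shares were 8.70% and 3.17%. Coding genes with at least 5 sites were not counted in this way, so the 12 genes have no coding share of like threshold beside them. The first 5 of the 12 genes were Gm35040 with 21 sites, Dlx6os1 with 14, 9130024F11Rik with 11, Gm28175 with 9 and Brip1os with 7. Gm35040 (chr7:79536043-79560033, plus strand) had all its sites in exon 2 of 4940 nt. The 36 genes with sites in cerebellum alone had at most 3 sites each.

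AC160336.1 (chr14:44544055-44637201, minus strand), a single annotated exon of 93147 nt, had 28 sites, with 14 in cerebellum, 26 in cerebrum and 12 in both. All 28 were in soft-masked sequence and 24 lay in the 3′-most of 4 equal parts, and 1.48% of the 1886 DRACH adenosines of the exon were listed. 2810013P06Rik, a bidirectional promoter gene, had 11 sites, all of them inside the span of a coding gene on the same strand, with 3 in cerebellum, 8 in cerebrum and 0 in both. The sense_intronic genes with most sites, AC132307.1 and Gm29170, had 6 each, of which 1 and 3 were in both libraries.

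Some genes typed as noncoding in GENCODE M21 were coding in a second annotation. On the RefSeq models of the same assembly 867 of the 1501 sites (57.8%) lay in exons of noncoding transcripts, 491 (32.7%) in no RefSeq exon, and 143 (9.53%, 8.14 to 11.1) in an exon of a messenger RNA on the same strand, 62 of them in its coding sequence. The label "noncoding" therefore did not hold for these 143 sites under RefSeq. Gm37494 (chr7:39544402-39580589, plus strand) had 35 sites, 18 in cerebellum, 35 in cerebrum and 18 in both, and 27 of them were in the coding sequence of the RefSeq gene Gm33989. The first of 4 equal parts of its transcript held 32 of the 35. Zswim6, annotated as a processed_transcript, had 17 sites with 16 in a RefSeq coding sequence, and Trerf1 had 13 with 7. The share found in both libraries was 37.3% (34.1 to 40.5) for sites in RefSeq noncoding exons, 37.1% (29.6 to 45.2) for those in messenger RNA exons and 23.8% (20.3 to 27.8) for those in no RefSeq exon.

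Most sites had none of the further relations to GENCODE coding genes that were looked at. Upstream flanks and introns on the opposite strand were not looked at. Exons of coding genes on the opposite strand covered 32 sites (2.13%), spans of coding genes on the same strand 101 (6.73%), and the 5000 nt downstream of coding genes 38 (2.53%), and 1332 sites (88.7%) met none of these. Soft-masked sequence held 423 sites (28.2%, 25.96 to 30.5), and 28.8% of unlisted DRACH adenosines in the carrying transcripts, whereas the share for sites in coding exons was 7.74%.

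In 10 cases the 31 nt around a site were identical to those of another site, forming 5 windows over 7 genes, all in soft-masked sequence. They are printed because reads from such windows could come from either place. The window of Gm36816 lay at chr6:67008344-67008374 (minus strand) and chr6:67009176-67009206 (minus strand). The window of Gm16630 and Gm29674 lay at chr6:48131032-48131062 (minus strand) and chr10:107199952-107199982 (minus strand). The window of Gm4117 and Gm47214 lay at chr13:89820414-89820444 (plus strand) and chr9:14977520-14977550 (plus strand). The window of A230077H06Rik and Gm16041 lay at chr7:40819269-40819299 (minus strand) and chr1:4973742-4973772 (plus strand). The window of Gm36816 lay at chr6:67008332-67008362 (minus strand) and chr6:67009164-67009194 (minus strand).
Gm36816: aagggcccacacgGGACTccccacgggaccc
Gm16630 and Gm29674: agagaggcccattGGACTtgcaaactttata
Gm4117 and Gm47214: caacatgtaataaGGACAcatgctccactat
A230077H06Rik and Gm16041: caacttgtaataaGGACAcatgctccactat
Gm36816: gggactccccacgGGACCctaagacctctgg
Both Gm36816 windows lie in each of a pair of repeat copies. The windows of Gm4117 with Gm47214 and of A230077H06Rik with Gm16041 resemble each other and carry the site at the same place.

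The 5-mers at the sites were led by AGACT with 221 sites (14.7%), GAACT with 200 (13.3%) and GGACT with 192 (12.8%). Together these 3 made up 40.8% (38.4 to 43.3) of sites, against 15.2% (14.8 to 15.6) of the 29835 unlisted DRACH adenosines in the carrying transcripts. In coding exons the shares were 37.4% and 14.7%. GGACT was the 5-mer most often listed where it occurred, at 12.5% (10.9 to 14.2) of 1539 occurrences, followed by AGACT at 11.6% (10.3 to 13.2) and GAACT at 11.6% (10.2 to 13.2), and these intervals overlapped. In coding exons GGACT stood at 23.4% (23.1 to 23.8), GAACT at 20.5% and AGACT at 18.7%. The lowest rates in noncoding exons were those of TAACC, with 3 of 949 occurrences (0.316%), and AAACC, with 8 of 1809 (0.442%).

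The base after the AC of the motif differed between listed and unlisted adenosines. T stood there at 63.4% of sites and 32.2% of unlisted DRACH adenosines, A at 27.2% and 42.1%, and C at 9.39% and 25.8%. G directly before the A was found at 62.3% of sites and 48.3% of unlisted adenosines. Outside the 5-mer, A at the position 4 bases before the site made up 45.7% (43.2 to 48.2) of sites and 31.7% of unlisted adenosines, and T at 4 bases after it 39.1% (36.7 to 41.6) and 26.4%. G was rarer at both places, with 13.7% against 22.9% before and 11.9% against 20.9% after. The 101 nt around sites had a median GC content of 41.6%, and that around unlisted adenosines 43.6%.

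Most DRACH adenosines of carrying transcripts were not listed. In the 468 carrying transcripts 1501 of 31336 were listed (4.79%, 4.56 to 5.03), against 9.35% (9.29 to 9.41) in coding ones. Distance to a splice junction went with this share in multi-exon noncoding transcripts. It was 2.86% (2.21 to 3.68) within 50 nt, 4.18% (3.19 to 5.47) at 51 to 100 nt, 9.90% (8.51 to 11.5) at 101 to 200 nt, 9.38% (8.24 to 10.7) at 201 to 400 nt, 6.62% (5.91 to 7.41) at 401 to 1000 nt and 4.26% (3.87 to 4.69) beyond. The coding shares over the same bins were 1.29%, 4.99%, 17.8%, 22.0%, 16.6% and 8.38%. Listed shares in both classes were thus lowest next to junctions and highest between 101 and 400 nt, over a smaller range in noncoding transcripts. Within 100 nt of a junction lay 9.30% (7.76 to 11.1) of multi-exon sites and 15.9% (15.4 to 16.4) of unlisted adenosines, compared with 8.58% and 36.3% for coding exons. Without Tug1 the noncoding shares were 2.76%, 4.02%, 9.69%, 9.11%, 6.21% and 3.61%.

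**Figure D4:**
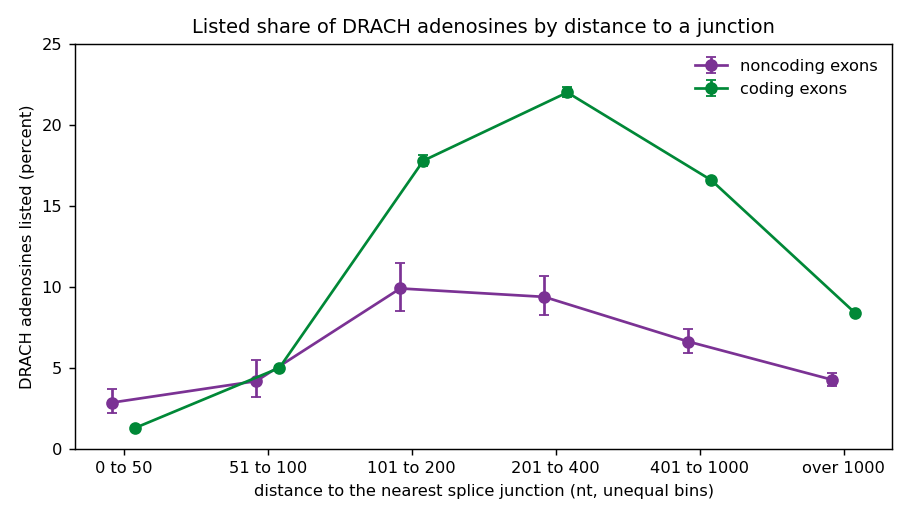
Percent of DRACH adenosines listed as sites (vertical axis) by distance to the nearest splice junction in nt (horizontal axis, unequal bins) in multi-exon transcripts; points are shares, whiskers 95% Wilson intervals over sites. Noncoding exons go from 2.86% within 50 nt to 9.90% at 101 to 200 nt, coding exons from 1.29% to 22.0% at 201 to 400 nt.

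Exon length went with the listed share as well. In exons of up to 200 nt 2.28% (1.64 to 3.15) of DRACH adenosines were listed, in those of 201 to 400 nt 8.69% (7.23 to 10.4), of 401 to 1000 nt 8.23% (7.21 to 9.38), of 1001 to 3000 nt 4.66% (4.25 to 5.10) and above that 4.30% (4.003 to 4.62). In coding exons the shares were 0.703%, 4.68%, 15.6%, 13.8% and 11.1%. Last or only exons held 83.0% (81.0 to 84.8) of sites and 82.6% (82.2 to 83.1) of unlisted DRACH adenosines, but this sum joins unlike parts. Last exons of multi-exon transcripts held 59.6% (57.1 to 62.1) of all sites and 47.8% (47.2 to 48.4) of unlisted adenosines, and only exons 23.4% (21.3 to 25.6) and 34.8% (34.3 to 35.4). Within multi-exon transcripts the last exon held 77.8% (75.3 to 80.1) of sites and 73.3% (72.7 to 73.95) of unlisted adenosines. In coding transcripts last or only exons held 74.1% of sites and 55.4% of unlisted adenosines. Single-exon noncoding transcripts, which have no junction, had 3.27% (2.95 to 3.62) of DRACH adenosines listed, and last exons of spliced ones 5.91% (5.54 to 6.29). The single-exon class includes the very long exons of Kcnq1ot1 and AC160336.1.

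Neighbouring sites were compared by their distance along the genome. Another noncoding site on the same strand was within 50 nt of 37.0% (34.6 to 39.4) of sites, and the median distance to the nearest was 95 nt. In coding exons 49.0% (48.7 to 49.4) of sites had such a neighbour and the median was 52 nt.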

How the data were processed

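The authors mapped the reads of each GLORI library to mm10 and to a PWK version of it, called m6A sites with GLORI-tools and GENCODE annotation, united both sets and kept sites above a minimum methylation rate and read count. The deposited files list chromosome, position and strand of each kept site, so the deposited values are genomic positions, without counts, rates or coverage, and depth is unknown. A position was classified on GRCm38, the assembly that mm10 names, and on GENCODE M21, which differs from the release the study names. Sequences and the second annotation came from RefSeq on GRCm38.p6. A site was placed in the longest noncoding transcript covering it, and its background was every DRACH adenosine of the carrying transcripts. Coordinates are 1-based. Sequences and DRACH adenosines are those of the C57 reference and not of PWK. This holds also for the paternally expressed Kcnq1ot1 and Snhg14, whose paternal allele in this cross is PWK. Nothing else was analysed from the study.

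Shares have 95% Wilson intervals, which cover counting error over sites only, and sites of 1 transcript share their source. With 1 library per tissue no test was made. Members and gene lists were chosen with earlier results of these data known. Genes were named when they were on a list of known noncoding RNAs and had a site, were among the 15 with most sites, the 5 with most sites all in 1 library, or the first 2 of their type. Mir99ahg was taken off the imprinted list, where it had been put by mistake, after the data were seen. Tissue markers, the genes named for a RefSeq coding model and those with identical windows were chosen after the data were seen. Placement was tested on simulated data, where the exon, offset and junction distance of 1500 sites (100%) and the 5-mers of 1485 sites (100%) were recovered. Python 3.11.15, numpy 2.4.6, pandas 2.3.3 and matplotlib 3.10.9 were used.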

Additional observations from a re-analysis of the deposited data

How the results depend on the processing

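Of 62 values recomputed under alternatives, 47 stayed within the interval of the value as reported (or, for the number of sites, within 1.5 times it) and 15 moved. Without soft-masked sites the DRACH share of listed positions was 47.34%, the share of the 3 leading 5-mers 38.31%, the share in the first 10 genes 31.54% and the share inside coding spans 5.102%. With gene types TEC and 3prime_overlapping_ncRNA added, the share in both libraries was 29.89%, the DRACH share 29.88%, the share in the last or only exon 86.44%, within 100 nt of a junction 5.745%, in the first 10 genes 22.23% and inside coding spans 16.12%. Without Tug1 the share in both libraries was 29.69% and that in the first 10 genes 23.96%. Over all sites, single-exon transcripts included, 7.13% were within 100 nt of a junction, 3.797% within 50 nt and 17.32% within 200 nt. Among sites in both libraries the 3 leading 5-mers made up 48.68%. Leaving out sites in RefSeq messenger RNA exons, an alternative chosen after the data were seen, moved none of the values it was run on out of their intervals. No paired analysis was possible because each tissue was 1 library.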

Other observations

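The same noncoding exons held 2036 listed positions outside DRACH, of which 7.61% (95% Wilson interval 6.54 to 8.85) were in both libraries, against 32.8% of the DRACH sites. In coding exons the share for positions outside DRACH was 10.6% (10.3 to 10.8). The most frequent 5-mers were TCATT with 49 positions, TCACA with 45 and TCAGT with 44, and of these 4, 1 and 2 were in both libraries. GGATT had 33 positions, 8 of them in both. Kcnq1ot1 had 83 such positions beside its 81 DRACH sites, AC160336.1 had 30 beside 28, and Snhg14 had 25 beside 26. C130073E24Rik had 24 beside 2 DRACH sites, while Tug1 had 22 beside 103. Whether such positions are methylated or are unmethylated adenosines that were not deaminated was not tested.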
